A study of Mus musculus with 4 samples.

Results

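Genes of fatty acid uptake, storage and oxidation were examined in tibialis anterior (TA) muscle, a muscle of the lower leg, from Old and Young C57BL/6 mice. The set comprised 49 genes named by their function, and a gene was counted when its symbol had a row in every sample. Of the 49 genes, 46 had such a row, among 20340 gene labels in all, and 45 of them passed the filter on low values that the test used. Acad8 and Acat1 had no row here, and Echs1 had a row in Old 2 (58.4 FPKM) and Young 1 (57.4 FPKM) only. The values of each sample ended within chromosome 7 or 8 in text order, so a missing row need not mean an absent transcript. Acot1 was below the filter, with 0.822 and 0.0583 FPKM in Old 1 and Old 2 and 0.0430 and 0.918 FPKM in Young 1 and Young 2.

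The Old group was 2 samples from mice aged 20 months and the Young group 2 samples from mice aged 3 months. No treatment, transgene or deletion is given for either age, and the study describes the Old muscles as atrophied. RNA came from whole muscle frozen after removal, so fewer cells of a type and less RNA per cell cannot be told apart. The labels do not say whether the samples of one age came from separate mice. The study states that its statistics rested on 2 independent mRNA-seq experiments per sample, without saying whether these used separate mice. The p-values therefore measure the spread between these samples, which may be technical.

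Muscle fibers take fatty acids up through the transporter CD36, carry them on the binding protein FABP3 and activate them with acyl-CoA synthetases. The acyl-CoA is either esterified by the DGAT enzymes into triglyceride, kept in droplets coated by perilipins and released again by lipases such as ATGL (gene Pnpla2), or passed into mitochondria by the carnitine shuttle. There the dehydrogenases, hydratases and thiolases of beta-oxidation shorten it, and pyruvate dehydrogenase kinases such as PDK4 restrain the use of glucose when fat is burned.

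Levels are FPKM, fragments scaled by transcript length and by the mapped fragments of a sample. In the values as deposited, the median member was 2.01-fold higher in Old 1 than in Old 2 and 2.07-fold higher in Young 2 than in Young 1. Each sample was therefore divided by a factor, the median over 10639 genes of its ratio to the geometric mean of the samples, and the resulting scaled FPKM are given below. The factors were 1.56 for Old 1, 0.638 for Old 2, 0.656 for Young 1 and 1.58 for Young 2. The factor was not the same at all expression levels, which leaves a difference between samples of one age after scaling, and the number of reads behind each value is unknown. A value of 0 here need not mean an absent transcript: Ckm, the muscle creatine kinase, was listed at 0 in all 4 samples, Ttn in both Old samples, and Neb in Old 2 and Young 1. Other defining muscle genes were high, with myoglobin (Mb) between 1712 and 3643 scaled FPKM.

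The sequence before the start site is shown for 3 perilipins, for the lipase Pnpla2 and for Pdk4. Of the perilipins, Plin3 and Plin5 had separate values at the 2 ages and Plin2 had overlapping ones. Pdk4 had the largest positive log2 fold change of the members on the log2(scaled FPKM + 1) scale. The sequences are from RefSeq promoter windows (build GRCm38.p6, the coordinates of mm10, 5′ to 3′ on the strand of the gene), shown up to the first base that belongs to an annotated exon or to the RefSeq gene. The Plin3 region lies inside the deposited Plin3 locus, whose end is 2479 bases further upstream of that start site, and the other 4 regions lie outside their loci. Capitals mark the letters AGGTCA on either strand, the core letters that nuclear receptors such as the PPAR and ERR factors bind. The regions are chr4:86670218-86670309 (minus strand) for Plin2, chr17:56290512-56290761 (minus strand) for Plin3, chr17:56117607-56117798 (minus strand) for Plin5, chr7:141454938-141455187 (plus strand) for Pnpla2 and chr6:5496310-5496528 (minus strand) for Pdk4.
Plin2: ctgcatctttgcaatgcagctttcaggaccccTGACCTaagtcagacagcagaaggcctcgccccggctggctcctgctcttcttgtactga
Plin3: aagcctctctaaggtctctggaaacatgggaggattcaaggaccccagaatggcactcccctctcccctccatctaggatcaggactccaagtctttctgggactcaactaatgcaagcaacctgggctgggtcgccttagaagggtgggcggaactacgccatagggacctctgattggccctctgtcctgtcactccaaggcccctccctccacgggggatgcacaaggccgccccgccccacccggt
Plin5: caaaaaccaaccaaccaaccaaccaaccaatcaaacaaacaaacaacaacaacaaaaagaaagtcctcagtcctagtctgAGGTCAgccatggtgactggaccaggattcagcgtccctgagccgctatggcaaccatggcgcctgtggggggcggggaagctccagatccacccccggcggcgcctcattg
Pnpla2: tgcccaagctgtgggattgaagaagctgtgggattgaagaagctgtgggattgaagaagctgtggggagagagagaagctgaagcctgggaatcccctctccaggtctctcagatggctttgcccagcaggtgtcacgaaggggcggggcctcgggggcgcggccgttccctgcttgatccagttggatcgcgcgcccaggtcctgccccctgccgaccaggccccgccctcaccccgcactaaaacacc
Pdk4: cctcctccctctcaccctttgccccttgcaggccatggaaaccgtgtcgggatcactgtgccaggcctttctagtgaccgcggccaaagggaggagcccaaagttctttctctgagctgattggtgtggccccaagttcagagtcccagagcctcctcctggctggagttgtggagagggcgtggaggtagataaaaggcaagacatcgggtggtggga
Over whole windows, from 250 bases before to 50 bases after the start site, 39 of the 49 genes matched by symbol. AGGTCA was in the windows of 11 of these 39 (28.2%), against 4900 of 27025 genes in the table (18.1%). The longer ERR site TCAAGGTCA, which contains these letters, was in 1 member (Acsl6, 2.56%) and in 0.466% of all genes. The PPAR-RXR direct repeat, the core letters repeated after a single base, was in 0 of the 39 members and in 13 of all genes (0.0481%). These are matches of letters only. The core letters did not go with one direction: the windows of Plin2 and Plin5 both held it, as did those of Cd36, lower in Old, and Acadm, higher in Old.

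In Old muscle most of these genes had lower values than in Young muscle, and the storage and lipolysis genes were the furthest from 0. Of the 45 tested genes, 31 had a lower and 14 a higher mean on the log2(scaled FPKM + 1) scale, with a median log2 fold change of -0.19, against 0.01 over all 9420 genes tested. No member passed the test (limma, Benjamini-Hochberg adjusted p under 0.05), where 49 of all genes did (0.52%), 26 higher (0.276%) and 23 lower (0.244%) in Old. At an unadjusted p under 0.05, which 19.9% of all genes met, 1 member was higher (2.22%, against 9.2%) and 9 were lower (20.0%, against 10.7%). Both Old values lay below both Young values for 18 members (40.0%, against 25.2% of all genes) and above them for 8 (17.8%, against 25.4%). When the groups also had to be 1.5-fold apart, 8 members were lower (17.8%, against 6.48%) and 1 was higher (2.22%, against 5.92%). In the pairs of samples with like factors, Old 1 with Young 2 and Old 2 with Young 1, chosen after the values were seen, 9 members were lower in Old by 1.5-fold or more in each pair (20.0%, against 9.47%) and 1 was higher (2.22%, against 6.86%). With 2 samples per age the exact two-sided permutation test of a single gene cannot give a p under 0.333.

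The call depended on how the factor between samples was removed. When it was fitted as a curve over expression level (cyclic loess), 3 members passed as higher (6.67%, against 12.7% of all genes) and 18 as lower (40.0%, against 15.3%), 21 in all (46.7%, against 28.0%). The median log2 fold change of the members was -0.19 there too. After this step, the median member differed by 0.06 (log2) between Old 1 and Old 2 and by 0.06 between Young 1 and Young 2. It differed by 0.30 between Old 1 and Young 2 and by 0.28 between Old 2 and Young 1. These medians were not computed over all genes. Under the main scaling, the 25th and 75th percentiles of log2 fold change over all genes were -0.23 and 0.24. Leaving out 1 sample also moved the count under the main scaling, for the members and for all genes. In each such fit the lone sample was assumed to vary like the other group.

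**Figure D1:**
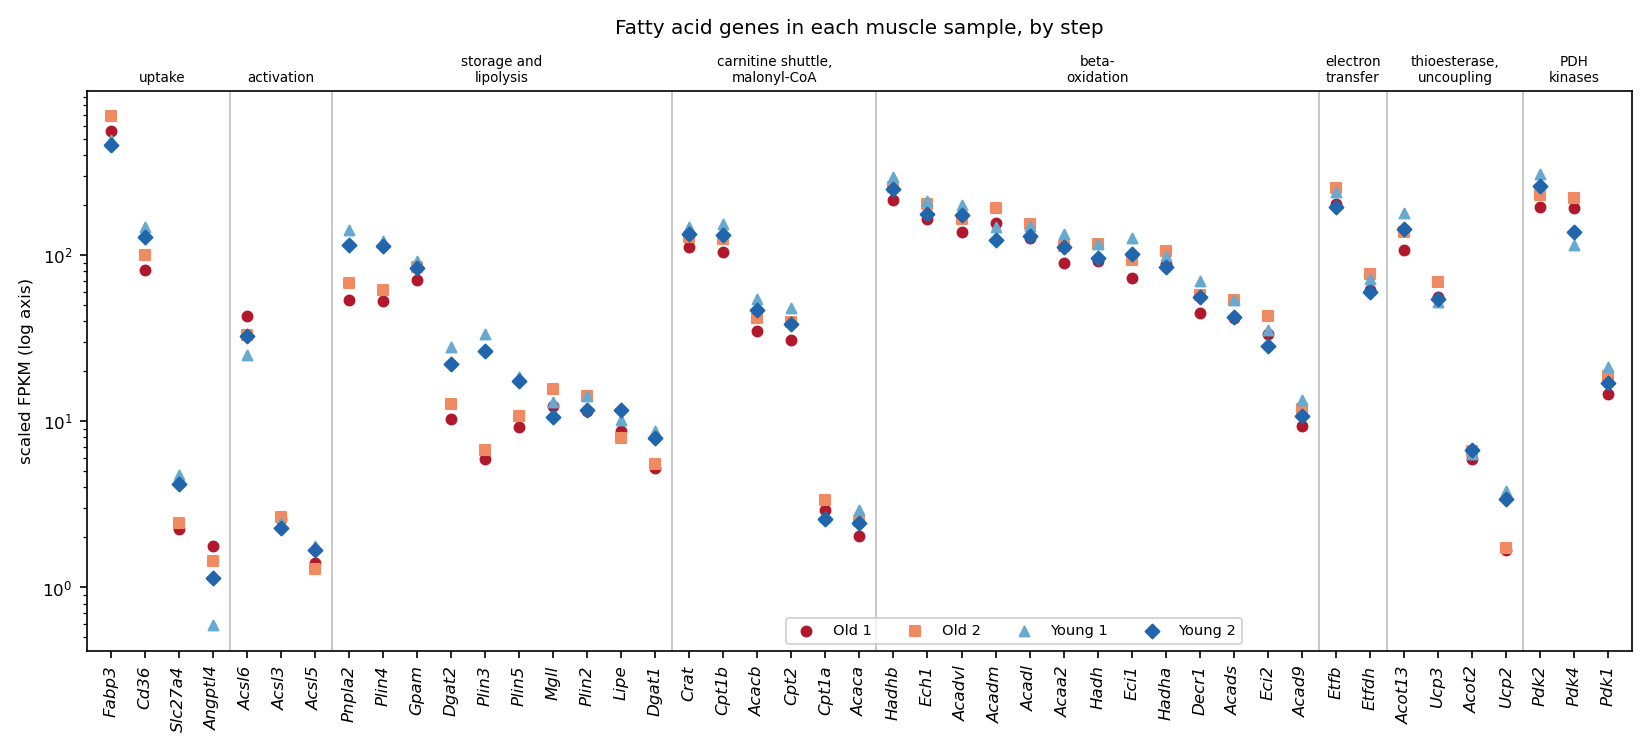
Scaled FPKM (log axis) of the 45 tested genes in Old 1, Old 2, Young 1 and Young 2, ordered by step and by mean level within a step; each point is 1 sample. The Old points lie below the Young points for Plin3, Plin4, Plin5, Pnpla2 and Dgat2, and above them for Pdk4.

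The genes of storage and lipolysis, which build triglyceride, coat droplets and release fatty acids from them, were lower in Old for 9 of 10 members in value, with a median log2 fold change of -0.67. Their summed level was 242 and 289 scaled FPKM in Old 1 and Old 2 and 483 and 423 in Young 1 and Young 2. In 7 of the 10 genes (70.0%, against 25.2% of all genes) both Old values were below both Young values. In 0 were both above (against 25.4% of all genes). Under cyclic loess 6 passed as lower (60.0%, against 15.3%).

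Plin3, a perilipin found both in the cytosol and on droplets, had the largest difference. It measured 5.92 scaled FPKM in Old 1 and 6.77 in Old 2, against 33.5 in Young 1 and 26.7 in Young 2. The Young samples were thus well above the Old samples, with a log2 fold change of -2.07 ± 0.17 (SE, n = 2 per age; limma adjusted p = 0.0586). It passed the test in 10 of 15 alternative settings, cyclic loess among them (adjusted p = 0.00477), with log2 fold changes from -2.23 to -1.92 over the 15 and adjusted p from 1.5e-10 to 1.00.

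The other perilipins divided. Plin4 had 53.2 and 61.5 scaled FPKM in Old 1 and Old 2 and 121 and 114 in Young 1 and Young 2 (log2 fold change -1.03 ± 0.17 SE, limma adjusted p = 0.126). Plin5, the perilipin that ties droplets to mitochondria, had 9.23 and 10.7 in Old and 18.4 and 17.4 in Young in the same order (-0.79 ± 0.13, limma adjusted p = 0.127). In both genes the Old values stood apart below the Young values. Plin2, the perilipin that follows the amount of stored lipid in many cells, had 11.6 and 14.3 in Old and 14.3 and 11.7 in Young, so that its ages overlapped (log2 fold change -0.01, 95% confidence interval -0.52 to 0.51).

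Among the lipases, the first enzyme of triglyceride breakdown had lower values in Old and the last did not. Pnpla2, which encodes ATGL, had 54.2 and 68.2 scaled FPKM in Old 1 and Old 2 and 142 and 116 in Young 1 and Young 2 (log2 fold change -1.06 ± 0.22 SE, limma adjusted p = 0.153). Lipe, the hormone-sensitive lipase that acts on diglyceride, had 8.81 and 7.96 in Old and 10.3 and 11.7 in Young, apart but by less (-0.35 ± 0.12). Its value is a sum of 2 rows with the same coordinates, one of them listed at 0 in Old 2 and Young 1 and at 2.51 and 2.78 deposited FPKM in Old 1 and Young 2. Mgll, the monoglyceride lipase, had 12.4 and 15.8 in Old and 13.1 and 10.6 in Young, with overlapping ages (0.23 ± 0.19).

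The enzymes that complete triglyceride followed Pnpla2 in direction. Dgat2 had 10.4 and 12.7 scaled FPKM in Old 1 and Old 2 and 28.1 and 22.1 in Young 1 and Young 2 (log2 fold change -1.05 ± 0.20 SE, limma adjusted p = 0.137). Dgat1, which carries out the same step with a different protein, had 5.22 and 5.52 in Old and 8.69 and 7.90 in Young (-0.54 ± 0.10, limma adjusted p = 0.133). Gpam, which starts glycerolipid synthesis, had overlapping ages, with 71.1 and 85.2 in Old and 92.8 and 84.4 in Young.

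Plin4, Plin5 and Plin3 are neighbours on chromosome 17 (mm10), where their deposited loci run from chr17:56079657 to chr17:56292990. The loci of Plin4 and Plin5 lie 1571 bases apart, and that of Plin3 a further 159672 bases on. Genes between Plin5 and Plin3 that are not members also had lower values in Old, Lrg1 by a log2 of -1.90 and Sema6b by -1.06, with limma adjusted p of 0.0712 and 0.0858. On the other side of Plin4, Ubxn6 had a higher value in Old, with a log2 fold change of 0.61 (limma adjusted p = 0.26). These neighbours were named after their values were seen.

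In uptake, the genes divided between lower and higher values. Cd36, the fatty acid transporter of the fiber and of capillary cells, had 81.3 and 99.8 scaled FPKM in Old 1 and Old 2 and 148 and 129 in Young 1 and Young 2 (log2 fold change -0.61 ± 0.20 SE, limma adjusted p = 0.237). Slc27a4, a transporter with acyl-CoA synthetase activity, had 2.25 and 2.44 in Old and 4.73 and 4.19 in Young (-0.71 ± 0.10, limma adjusted p = 0.112). Both genes passed as lower under cyclic loess.

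Fabp3, the cytosolic binding protein of muscle and the most abundant member, ran the other way. It had 564 and 688 scaled FPKM in Old 1 and Old 2 and 495 and 460 in Young 1 and Young 2 (log2 fold change 0.38 ± 0.16 SE, limma adjusted p = 0.312; cyclic loess adjusted p = 0.0355). Angptl4, a secreted inhibitor of lipoprotein lipase, was the lowest tested member by mean level. It had 1.78 and 1.43 in Old and 0.591 and 1.15 in Young, and its Young samples lay far from each other (0.49 ± 0.23). Angptl4 was the 1 member higher in Old by 1.5-fold or more in each pair with like factors, at 1.55-fold and 2.36-fold.

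Of the acyl-CoA synthetases, Acsl1 and Acsl4 did not have a row in every sample and were not tested. Those tested were 3, and none passed under median scaling or cyclic loess. Acsl6, the most abundant of them, had 43.3 and 33.0 scaled FPKM in Old 1 and Old 2 and 25.0 and 32.6 in Young 1 and Young 2, so that Old 2 and Young 2 nearly met. Its value is a sum of 2 rows with the same coordinates. Acsl3 and Acsl5 were low, between 1.29 and 2.66 scaled FPKM in every sample, with log2 fold changes of 0.11 and -0.22.

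**Figure D2:**
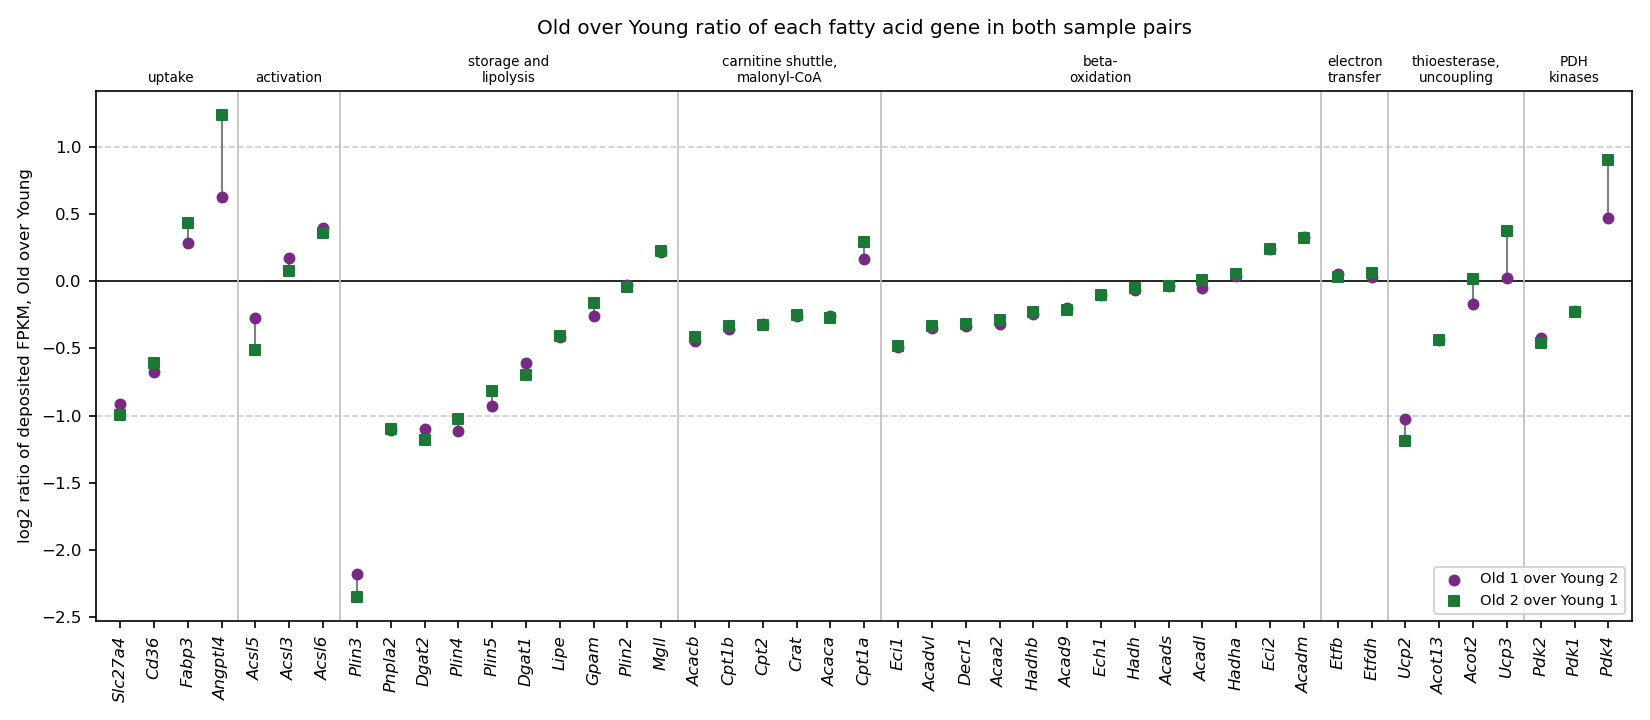
Log2 ratio of deposited FPKM, Old 1 over Young 2 (circles) and Old 2 over Young 1 (squares), for the 45 genes by step, with a line joining both ratios of a gene; dashed lines mark log2 ratios of 1 and -1. These pairs have like factors and were chosen after the values were seen. Both Plin3 ratios lie below -2, and those of beta-oxidation genes stay within 0.5 of 0.

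The carnitine shuttle and malonyl-CoA genes were 6, with a median log2 fold change of -0.26, 5 of them lower in value. Cpt1b, the muscle form of the enzyme that commits acyl-CoA to the mitochondrion, had 105 and 125 scaled FPKM in Old 1 and Old 2 and 154 and 133 in Young 1 and Young 2 (log2 fold change -0.32 ± 0.19 SE). Its row also carries the symbols of neighbouring genes, so part of the value may belong to those. Crat, the carnitine acetyltransferase with the highest mean level in the step, had 113 and 128 in Old and 148 and 134 in Young (-0.23 ± 0.18).

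The remaining genes of the step included the lowest ones. Cpt2, the partner of Cpt1b in the inner membrane, overlapped between the ages, with 31.1 and 39.4 scaled FPKM in Old 1 and Old 2 and 48.0 and 38.5 in Young 1 and Young 2. Cpt1a, the liver form, had 2.91 and 3.36 in Old and 2.67 and 2.57 in Young (log2 fold change 0.19 ± 0.10 SE). Of the carboxylases that make malonyl-CoA, the inhibitor of CPT1, Acacb had 34.9 and 42.0 in Old and 54.5 and 47.2 in Young (-0.40 ± 0.19), while Acaca, the member of this step nearest to no change, had 2.05 and 2.50 in Old and 2.94 and 2.43 in Young (-0.17 ± 0.14). Under cyclic loess Acacb, Cpt1b and Cpt2 passed as lower.

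The beta-oxidation genes differed little on the whole, with 9 of 13 tested genes lower and 4 higher in value and a median of -0.08 on the log2 scale. Their summed level was 1276 and 1570 scaled FPKM in Old 1 and Old 2 and 1658 and 1389 in Young 1 and Young 2, so that the ages overlapped. The acyl-CoA dehydrogenases, which start each round on chains of different length, did not share a direction. Acadvl, for very long chains, had 138 and 164 in Old and 201 and 174 in Young (log2 fold change -0.31 ± 0.19 SE). Acadm, for medium chains, had 156 and 192 in Old and 149 and 123 in Young (0.35 ± 0.21).

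Both of these genes passed under cyclic loess, Acadvl as lower (adjusted p = 0.0174) and Acadm as higher (adjusted p = 0.0147). Acadl, for long chains, was the member of the step closest to 0, with 127 and 155 scaled FPKM in Old 1 and Old 2 and 150 and 131 in Young 1 and Young 2 (log2 fold change 0.01, 95% confidence interval -0.56 to 0.57, and -0.02 on the values as deposited). Acads, for short chains, was also close to 0 (-0.01, interval -0.67 to 0.65), and Acad9 had -0.17 (interval -0.71 to 0.37).

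Hadha and Hadhb encode the subunits of the trifunctional protein and lie 341 bases apart. Hadhb was the most abundant member of the step, with 214 and 259 scaled FPKM in Old 1 and Old 2 and 295 and 252 in Young 1 and Young 2. Hadha had 88.5 and 106 in Old and 99.2 and 85.6 in Young, and the ages overlapped in both genes (log2 fold changes -0.21 ± 0.19 and 0.07 ± 0.20 SE). Of the auxiliary enzymes for unsaturated chains, Eci1 had 72.8 and 93.2 in Old and 127 and 101 in Young (-0.45 ± 0.23), and Eci2, its relative also found in peroxisomes, had 33.7 and 42.8 in Old and 35.3 and 28.3 in Young (0.26 ± 0.22). Under cyclic loess Eci1, Decr1 and Acaa2 passed as lower and Eci2 as higher. Hadh and Ech1 had log2 fold changes of -0.03 and -0.08. The rows of Ech1, Acsl3 and Etfb also carry symbols of neighbouring genes.

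Electrons from beta-oxidation reach the respiratory chain through the electron transfer flavoprotein and its dehydrogenase. Etfb had 204 and 254 scaled FPKM in Old 1 and Old 2 and 241 and 195 in Young 1 and Young 2, and Etfdh had 61.6 and 77.6 in Old and 72.2 and 59.7 in Young. The ages overlapped in both genes, each with a log2 fold change of 0.07 ± 0.22 (SE).

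Among thioesterases and uncoupling proteins, Ucp2 and Ucp3, 6912 bases apart, went different ways. Ucp2 had 1.69 and 1.72 scaled FPKM in Old 1 and Old 2 and 3.81 and 3.41 in Young 1 and Young 2 (log2 fold change -0.77 ± 0.10 SE, limma adjusted p = 0.103; cyclic loess adjusted p = 0.0275). Ucp3, the form of skeletal muscle, had 56.3 and 69.6 in Old and 52.1 and 54.9 in Young (0.22 ± 0.19), and Old 1 was close to Young 2. Acot13, a mitochondrial thioesterase, had 107 and 137 in Old and 181 and 144 in Young (-0.41 ± 0.23), and it passed as lower under cyclic loess. Acot2 overlapped between the ages, at 5.98 to 6.68. It shares 24.5% of the 50-base words of its transcript with Acot1, so reads of these genes could have been split between them.

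The pyruvate dehydrogenase kinases, which lower the entry of pyruvate into mitochondrial oxidation, also divided. Pdk4, induced by fasting in muscle, had 194 and 220 scaled FPKM in Old 1 and Old 2 and 115 and 139 in Young 1 and Young 2, both Old values lying above both Young values. Its log2 fold change was 0.71 ± 0.19 (SE, n = 2 per age), the largest positive value of the 45 genes on the log2(scaled FPKM + 1) scale. Pdk4 did not pass the test (limma adjusted p = 0.19, cyclic loess adjusted p = 0.0770). With a pseudocount of 0.1 in place of 1, Angptl4 had the larger value, at 0.87 against 0.71 for Pdk4. Pdk2 had 197 and 232 in Old and 310 and 262 in Young (-0.41 ± 0.19; limma adjusted p = 0.33, cyclic loess adjusted p = 0.0173). Pdk1 overlapped, with 14.7 and 18.8 in Old and 21.4 and 17.0 in Young.

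Ratios of a pair of members within a sample do not depend on a single factor per sample, and those given here were chosen after the values were seen. Plin3 over Plin2 was 0.512 and 0.473 in Old 1 and Old 2 and 2.34 and 2.28 in Young 1 and Young 2. The order of these perilipins was thus reversed between the ages. Pnpla2 over Hadh, a lipase over an oxidation enzyme of similar level, was 0.583 and 0.585 in Old and 1.21 and 1.20 in Young. Cd36 over Fabp3 was 0.144 and 0.145 in Old and 0.298 and 0.280 in Young. Samples of one age lay close together in these ratios while the ages were apart. Not every ratio computed was this close within an age. Pnpla2 over Lipe was 6.15 and 8.56 in Old 1 and Old 2 and 13.8 and 9.92 in Young 1 and Young 2.

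Ratios between enzymes of oxidation also differed. Acadm over Acadvl was 1.13 and 1.17 in Old 1 and Old 2 and 0.738 and 0.706 in Young 1 and Young 2, and Hadha over Hadhb was 0.413 and 0.409 in Old and 0.337 and 0.340 in Young. Pdk4 over Pdk2 was 0.987 and 0.951 in Old and 0.370 and 0.530 in Young, with more spread in Young. Cpt1b over Cpt2, both of the carnitine shuttle, was 3.38 and 3.18 in Old and 3.20 and 3.46 in Young, so that the ages overlapped.

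**Figure D3:**
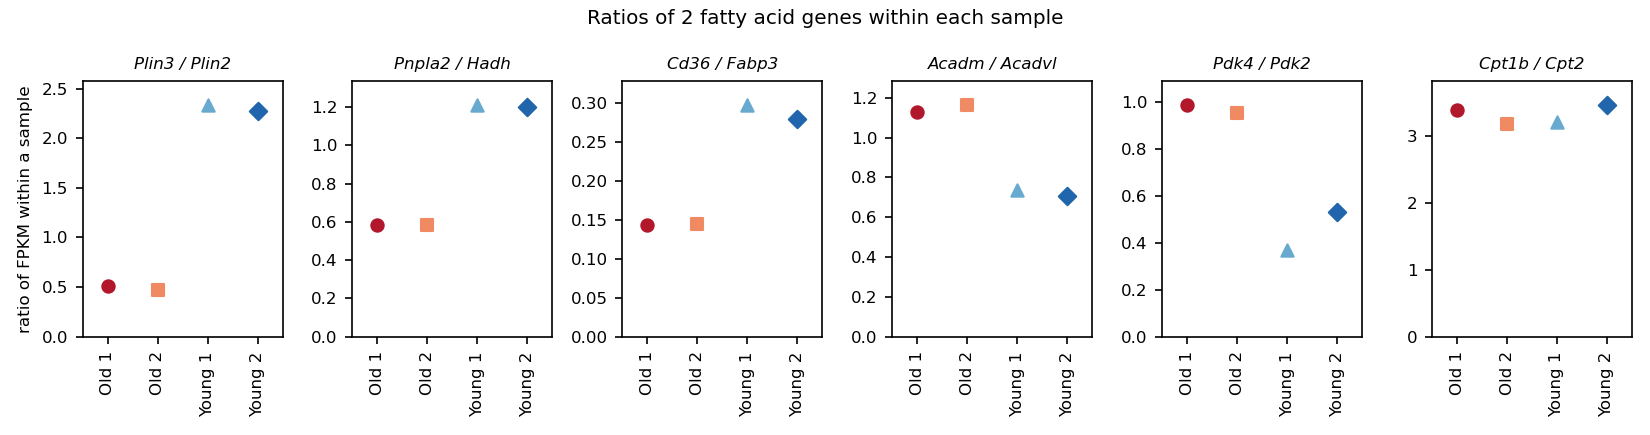
Ratio of deposited FPKM of 2 members within each sample, 1 panel per ratio with its own vertical axis starting at 0; each point is 1 sample. Plin3 over Plin2 is 0.512 and 0.473 in Old and 2.34 and 2.28 in Young, while Cpt1b over Cpt2 overlaps between the ages.

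Other genes of fatty acid metabolism, listed by function, gave a like picture. Of 77 such genes 57 had a row and 44 were tested, 29 with a lower and 15 with a higher value in Old (median log2 fold change -0.22). None passed the test in limma. At an unadjusted p under 0.05, 11 were lower (25.0%, against 10.7% of all genes) and 3 higher (6.82%, against 9.2%). Under cyclic loess 17 passed as lower (38.6%, against 15.3%) and 4 as higher (9.09%, against 12.7%). Named after their values were seen, Fitm1, which partitions triglyceride into droplets, had 219 and 277 scaled FPKM in Old 1 and Old 2 and 687 and 501 in Young 1 and Young 2 (-1.25). Fasn, the fatty acid synthase, had 0.895 and 0.960 in Old and 3.31 and 3.23 in Young (-1.15). Bdh1, a ketone body enzyme, had 4.73 and 5.41 in Old and 2.52 and 2.45 in Young (0.80).

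The subunits of the respiratory chain and ATP synthase, which use the electrons of fatty acid oxidation, were lower in value for 62 of 64 tested genes. Their median log2 fold change was -0.36, from -1.19 to 0.09. Ndufs7 and Atp5d, counted among the lower ones, were listed at 0 in Old 2 and Young 1. None passed the test in limma. At an unadjusted p under 0.05, 21 were lower (32.8%, against 10.7% of all genes) and 0 higher (against 9.2%). Under cyclic loess 24 passed as lower (37.5%, against 15.3%) and 0 as higher (against 12.7%). Of the 78 genes listed, 64 had a row.

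Markers of fiber and cell types were also compared between the ages, and their part in these results was not tested. General muscle genes summed to 8895 and 5655 scaled FPKM in Old 1 and Old 2 and 6485 and 9886 in Young 1 and Young 2, and 0 of 8 tested passed in limma (0 higher and 1 lower at an unadjusted p under 0.05). Slow fiber genes summed to 1006 and 897 scaled FPKM in Old 1 and Old 2 and 130 and 116 in Young 1 and Young 2, and 6 of 8 tested passed as higher in Old (limma adjusted p under 0.05; median log2 fold change 3.66). Of 8 fast fiber genes tested 0 passed as higher and 1 as lower (1 higher and 1 lower at an unadjusted p under 0.05), and their sum ran from 24828 to 68831 in Old and from 32060 to 55550 in Young. The gene that passed, Tnnt3, had a listed value of 0 in Old 1 and Old 2, while Myh1 was listed at 0 in both Young samples and had 843 and 245 in Old (limma adjusted p = 0.052; cyclic loess adjusted p = 0.0138), and Myh4 was listed at 0 in all 4 samples. Of 9 adipocyte genes tested, 4 had higher and 5 lower values in Old, none passed in limma (1 higher and 2 lower at an unadjusted p under 0.05), and the sum was 2307 to 3202 in Old and 1753 to 2117 in Young, most of it Car3, which muscle also expresses. Among the adipocyte genes Adipoq was low but higher in Old, at 5.43 and 4.66 in Old and 2.09 and 2.73 in Young. Plin1 was at 0.643 to 1.40 over the 4 samples, and Cfd was listed at 0 in Old 2 and Young 1. Thrsp and Pparg were lower in Old, with log2 fold changes of -1.23 and -0.59. Thrsp had 4.18 and 3.74 in Old 1 and Old 2 and 11.1 and 10.2 in Young 1 and Young 2. Fabp4 was not low, with 200 and 255 in Old and 276 and 219 in Young, and its ages overlapped (-0.12).

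Lower sums in Old were also measured for the other cell types of the muscle. Endothelial genes summed to 119 and 146 scaled FPKM in Old 1 and Old 2 and 203 and 167 in Young 1 and Young 2 (7 tested, 5 lower in value). Of the 7, 4 passed as lower under cyclic loess (57.1%, against 15.3% of all genes). Macrophage genes summed to 14.4 and 13.7 in Old and 22.5 and 22.7 in Young (3 tested, 3 lower in value). Fibroblast genes summed to 115 and 145 in Old and 202 and 166 in Young (6 tested, 4 lower and 2 higher in value). The collagens Col1a1, Col1a2 and Col3a1 had log2 fold changes of -1.95, -1.53 and -1.40. Col1a1 was at 6.79 and 8.55 in Old and 35.4 and 29.4 in Young. Lum was lower by less (-0.16), with overlapping ages. Dcn was higher in value, at 76.6 and 97.1 in Old and 77.7 and 61.5 in Young, with overlapping ages. Pdgfra was higher with separate ages, at 1.84 and 2.11 in Old and 1.74 and 1.57 in Young. Under cyclic loess the collagens passed as lower and Dcn as higher (adjusted p = 0.0240).

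**Figure D4:**
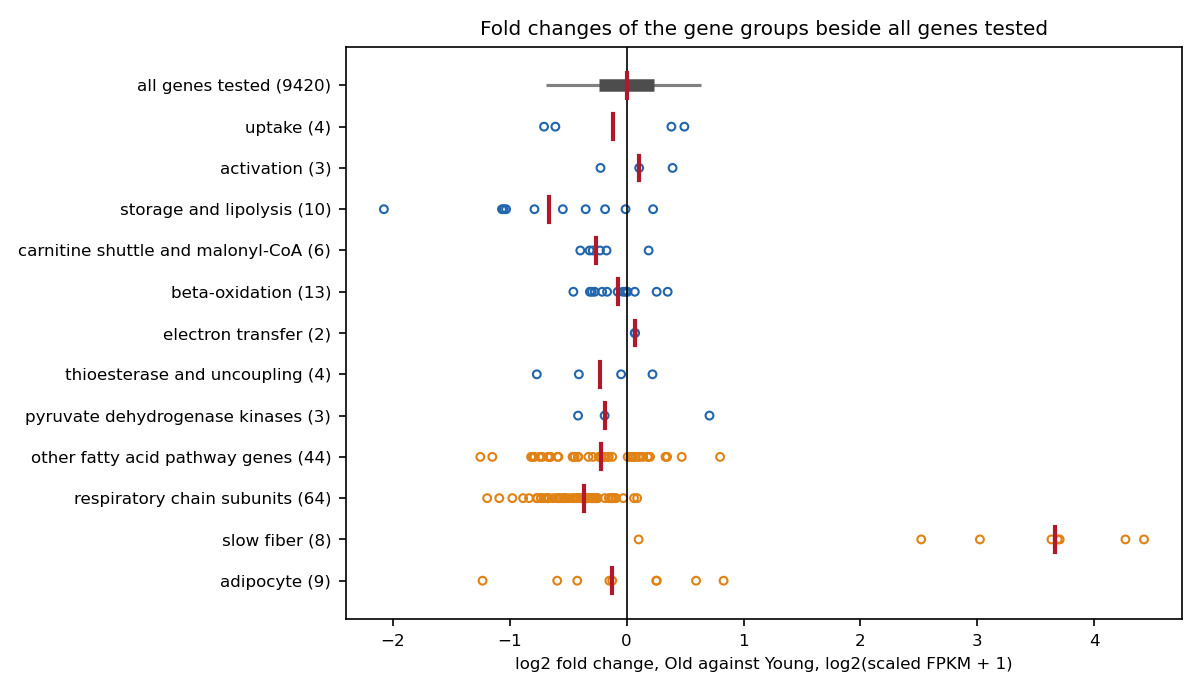
Log2 fold change (Old against Young, log2(scaled FPKM + 1)) of each tested gene (circles) by step, in blue, and for 4 other lists (other fatty acid pathway, respiratory chain, slow fiber and adipocyte genes), in orange, with the number of genes tested in parentheses; red lines mark medians. For all 9420 genes the thick bar spans the 25th to 75th percentile and the thin line the 5th to 95th. The median of storage and lipolysis (-0.67) is the lowest of the steps, and that of slow fiber genes (3.66) lies far to the right of the other lists plotted.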

How the data were processed

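TA muscle was profiled by mRNA-seq in 2 samples at 20 months (Old) and 2 at 3 months (Young), 4 in all, grouped by the age and number in their labels. Adapters, low-quality bases and PCR duplicates were taken out by the authors with in-house code, and they aligned the reads to mm10 with TopHat2 (2.0.10 per the labels) guided by RefSeq, and deposited FPKM per locus from the Cufflinks suite (Cuffdiff 2.1.1 per the labels). Whether counting used strand is not given in the sources used here. Values ended within chromosome 7 or early in chromosome 8 in text order, so 1 incomplete last line per sample and loci without a row in all samples were left out, as were later chromosomes. The depth of the samples is unknown, and no counting interval is given.

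Rows of one symbol were summed, samples were scaled by the median of ratios, and log2(scaled FPKM + 1) was compared with limma 3.58.1 in R 4.3.3 (lmFit, eBayes with trend, two-sided, Benjamini-Hochberg) over genes with at least 1 scaled FPKM in at least 2 samples. The fold change is on that scale and understates the change of low genes. The study's Cuffdiff needs aligned reads and was not repeated. Tables and figures used Python 3.11.15, pandas 2.3.3, numpy 2.4.6 and matplotlib 3.10.9. Promoter windows came from RefSeq, matched by symbol, and coordinates are counted from 1.

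The members and lists were chosen with earlier results of these data known. Values per sample were to be given for members past the threshold with a log2 fold change of at least 0.4, for the highest member of each step and for the member nearest to 0 in the carnitine shuttle and beta-oxidation steps. No member passed, so those at 0.4 or more were named whatever their p, and other members were added to account for each step, after values were seen. Of other lists, genes past the threshold were to be named, and those named without it were chosen after values were seen. In data simulated from these genes with the samples' factors and 200 genes changed by a log2 of 1, limma on scaled values recovered 200, with 13 false calls, and on deposited values 0. The simulation used a single factor per sample and noise with an SD of 0.15 (log2). In the scaled data, log2 differences between samples of one age had an SD over genes of 0.905 (Old) and 0.925 (Young). The simulated recovery therefore does not give the recovery to be had in these data. Alternatives were other scalings, pseudocounts, filters and row choices, no trend, the replicate number as a block, and leaving out each sample. Crossed pairs were added after seeing the values.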

Additional observations from a re-analysis of the deposited data

How the results depend on the processing

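Over 15 alternatives the median log2 fold change of the members kept its sign, from -0.31 to -0.07 when each sample was left out, and it was -0.21 on values as deposited. Genes passing in the other settings are given as higher and lower in Old, beside 26 and 23 of all genes and 0 and 0 of the members. On values as deposited they were 18 and 13 genes, and members with separate ages were 0 higher and 3 lower. The share of all genes with separate ages was not counted on deposited values. With quantile normalization they were 125 and 200 genes, and lower only for 5 members, 3 other fatty acid genes and 2 respiratory chain genes. With cyclic loess they were 1194 and 1441 genes, 3 and 18 members, 4 and 17 other fatty acid genes, and 24 respiratory chain genes lower. A pseudocount of 0.1 gave 36 and 38 genes and 1 member lower. Without the filter they were 6 and 4 genes. With 1 FPKM in all 4 samples they were 463 and 484 genes, 7 members lower, 2 and 7 other fatty acid genes, and 4 respiratory chain genes lower. Without the trend they were 8 and 4 genes.

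The labels number the samples, and the numbers do not pair them: deviations of same-numbered samples correlated at -0.91 over genes. The replicate block gave 53 and 64 genes and 1 member lower, and it left the other fatty acid and respiratory chain genes at 0 and 0; marker lists were run under cyclic loess only. Crossed pairs as a block, Old 1 with Young 2 and Old 2 with Young 1, were added after seeing the data and gave 3231 and 3230 genes, 9 and 27 members, 8 and 29 other fatty acid genes and 58 respiratory chain genes lower. Cyclic loess with crossed pairs as a block gave 3103 and 3159 genes, 9 and 26 members, 9 and 29 other fatty acid genes and 2 and 52 respiratory chain genes.

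Leaving out each sample gave 31 to 415 genes higher and 26 to 531 lower, 0 to 4 members lower, 0 to 1 other fatty acid genes higher and 0 to 5 lower, 0 to 2 respiratory chain genes higher and 0 to 6 lower, and 8 to 15 members apart as higher and 18 to 32 as lower. The causes of these differences were not tested. Of the named members' values over the alternatives, 234 kept direction and side of the threshold, 75 kept direction and passed, and 5 changed sign. Acadl was at -0.018 on values as deposited. Leaving out each sample moved Acadl from -0.13 to 0.15 and Etfb from -0.089 to 0.23, with the negative values without Old 2 and without Young 2. With unknown depth, 2 samples per age and a factor that varies with expression, small differences between ages could not be resolved under the main scaling.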
